A study of Mus musculus with 4 samples.

Results

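The regions described here carried a histone H4 acetylation peak in LPS-treated HDAC3 KO macrophages and in none of the other 3 libraries of the series. They are called the KO-LPS-only regions below. Peaks of the 4 lists that overlapped or touched were merged into 62481 regions, and 9054 of these (14.5%) held a peak of the LPS-treated HDAC3 KO list alone. They were selected on the peak calls of all 4 lists, and the strong and weak ones on the score, so neither their number nor their score is a test of a difference. A missing call means that no peak passed the authors' threshold in that library. A total of 580 had a score of 200 or more (0.928% of all merged regions), and the other 8474 scored lower. In HDAC3 KO, 26.4% of merged regions were called after LPS but not without it. Between the LPS-treated libraries, 23.4% were called in HDAC3 KO but not in wt.

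Acetylation of histone H4 loosens the packing of nucleosomes and marks active promoters and enhancers. HDAC3 is a histone deacetylase that works as the enzyme of the NCoR and SMRT corepressor complexes, which are recruited to regulatory DNA by transcription factors. LPS, from the outer membrane of Gram-negative bacteria, signals through TLR4 in macrophages and is known to bring NF-kB and interferon-regulatory factors to enhancers and promoters, where acetylation then builds up.

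The cells were primary bone marrow-derived macrophages of C57BL/6 mice on day 7 of differentiation in L929-conditioned medium. The 4 groups were HDAC3 -/- cells given 100 ng/ml LPS for 4 h, untreated HDAC3 -/- cells, HDAC3 +/- cells given the same LPS treatment, and untreated HDAC3 +/- cells. The series calls the HDAC3 -/- cells HDAC3 KO and the HDAC3 +/- cells wild type (wt), so its wt cells were heterozygous for Hdac3. How the allele was deleted, and how many mice gave the cells, was not given in the sources used here. Each group had 1 library, so there was no spread between replicates and no test across conditions.

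The lists held 45589 peaks in LPS-treated HDAC3 KO, 41956 in untreated HDAC3 KO, 39550 in LPS-treated wt and 48706 in untreated wt. Peaks covered 50.4 Mb in LPS-treated HDAC3 KO, 36.4 Mb in untreated HDAC3 KO, 37.4 Mb in LPS-treated wt and 35.4 Mb in untreated wt. No read counts were at hand, so depth is unknown. Peak scores are values the authors gave, on a scale that is not stated, and served to rank and filter peaks inside each list. No mm9 gene annotation was used, so regions are given by position only, and neither the Hdac3 locus nor macrophage marker genes were examined.

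Each KO-LPS-only region was a single peak of the LPS-treated HDAC3 KO list, and together they made up 19.9% of that list's peaks and 5.59 Mb of its length. They were mostly weak and narrow. Their scores had a median of 72.0, close to the list's lowest score of 50, against 145 for the whole list. Regions called in 1 other list alone were weak and narrow too. Their median scores were 64.5 for untreated HDAC3 KO, 68.7 for LPS-treated wt and 65.1 for untreated wt. Their median widths were 430, 434 and 373 bp in the same order, against 540.5 bp for the KO-LPS-only regions. Peaks of the whole LPS-treated HDAC3 KO list were also the widest, with a median of 836 bp. Whole-list medians were 691 bp in untreated HDAC3 KO, 722 bp in LPS-treated wt and 590 bp in untreated wt. Whole-list median scores of these other lists were 122, 141 and 116 in that order. The share of list peaks that were KO-LPS-only was 44.5% between scores of 50 and 75, 20.4% between 100 and 150, 7.43% between 200 and 300, and 0.946% between 500 and 1000. Above 1000 it was 8 of 3284 peaks (0.244%, exact 95% interval 0.105 to 0.479%, counting error only).

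The regions scored 200 or more had a median width of 1155.5 bp, against 522 bp for the weaker ones, and ranged from 337 to 4097 bp. They made up 6.41% of the KO-LPS-only regions. Their score had a median of 267, and 56 of them reached 500. For comparison, 4734 regions were called in LPS-treated wt alone (7.58% of all merged regions), of which 210 scored 200 or more (0.336% of all merged regions) and 14 reached 500. In untreated HDAC3 KO alone 5164 regions were called (8.26%), 60 of them at 200 or more (0.096%). In untreated wt alone 7337 were called (11.7%), 99 of them at 200 or more (0.158%). Regions at 200 or more were the wider ones in these classes too. Their median width was 991.5 against 424.5 bp for LPS-treated wt only and 1097 against 428 bp for untreated HDAC3 KO only. For untreated wt only it was 918 against 370.5 bp. The KO-LPS-only regions outnumbered each other class at each score plotted. Scores of different lists are not on a shared scale, so these counts are given side by side.

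**Figure D1:**
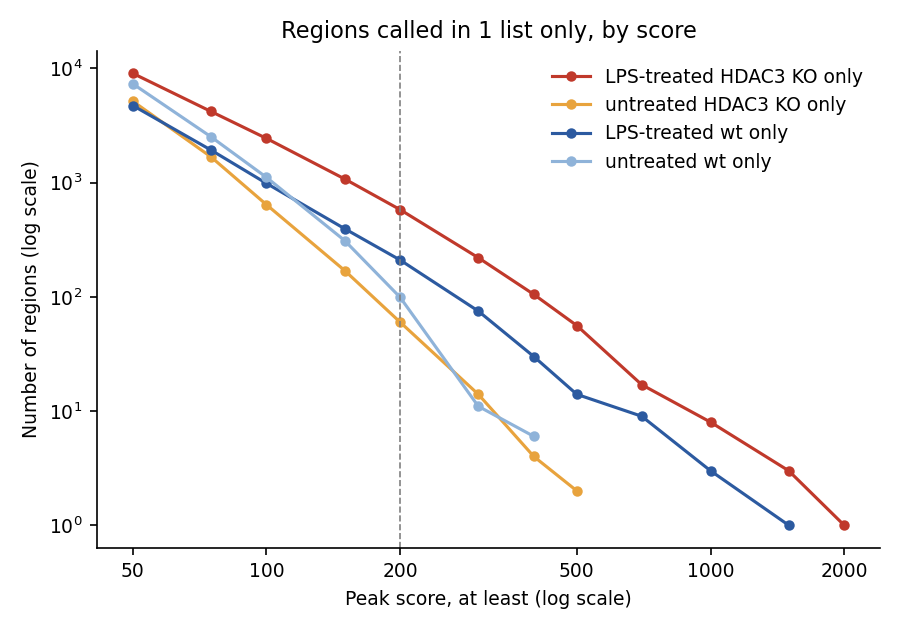
Number of regions called in 1 list only with a score of at least the value on the horizontal axis, both axes on a log scale, for the 4 lists. The dashed line marks a score of 200, where 580 KO-LPS-only regions lie, against 60 for untreated HDAC3 KO, 210 for LPS-treated wt and 99 for untreated wt.

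These numbers depended on how much of each list was used. When only the 20000 highest-scored peaks of each list entered, 2558 regions were called in LPS-treated HDAC3 KO alone, 2229 in untreated HDAC3 KO alone, 2336 in LPS-treated wt alone and 1977 in untreated wt alone. Every list was also reduced by score to the 35.4 Mb of the shortest. This kept 21938 peaks of LPS-treated HDAC3 KO, 39464 of untreated HDAC3 KO, 34848 of LPS-treated wt and all 48706 of untreated wt. The lowest score kept in LPS-treated HDAC3 KO was 153.65. The numbers were then 1167 for LPS-treated HDAC3 KO, 5883 for untreated HDAC3 KO, 5583 for LPS-treated wt and 9456 for untreated wt. LPS-treated HDAC3 KO had the fewest, which follows in part from losing its weak peaks in this unequal reduction. This reduction was chosen after seeing the data.

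The score of 200 falls within a continuous range. The 5 regions just above it scored 200.1 to 200.7 and were 902 to 1628 bp wide. They lay on chromosomes 17, 14, 9, 2 and 3. The 5 just below it scored 198.8 to 199.97 and were 876 to 1571 bp wide, on chromosomes 2, 14, 4, and, for 2 of them, 6.

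The highest-scored KO-LPS-only region lay on chromosome 2 at 122480811 to 122484168 (mm9, as for all positions). It was 3358 bp wide with a score of 2680.0, rank 550 of the list's peaks. The nearest peak of untreated HDAC3 KO was 17.0 kb away, that of LPS-treated wt 2.41 kb away with a score of 94.9, and that of untreated wt 23.7 kb away. Within the 50 kb centred on it, peaks covered 12.2 kb in LPS-treated HDAC3 KO, 0.347 kb in untreated HDAC3 KO, 4.42 kb in LPS-treated wt and 0 kb in untreated wt. The region thus stood in ground with LPS-treated peaks of both genotypes, but itself had a call in HDAC3 KO alone.

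The second, on chromosome 10 at 92511191 to 92513241, scored 1614. No LPS-treated wt peak lay within 110.2 kb of it, while a small untreated wt peak scored 63.9 lay 686 bp away. The third, on chromosome 10 at 18721776 to 18725528, scored 1514 and was 3753 bp wide. It lay 288 bp from a region called in all 4 lists and 1.61 kb from an LPS-treated wt peak scored 3100. In the 50 kb around it peaks covered 24.9 kb in LPS-treated HDAC3 KO, 6.62 kb in untreated HDAC3 KO, 14.0 kb in LPS-treated wt and 3.58 kb in untreated wt.

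A pair of neighbours on chromosome 18, at 65460330 to 65463748 and 65463832 to 65466532, scored 1015 and 1267 and were 83 bp apart. They were far from peaks of every other list: the nearest LPS-treated wt peak was 21.6 kb from the closer of them, the nearest untreated HDAC3 KO peak 69.2 kb and the nearest untreated wt peak 89.0 kb. Another pair of neighbours, on chromosome 15 at 36559597 to 36561122 and 36561281 to 36562685, scored 899 and 1049. Untreated HDAC3 KO had a peak scored 135 at 827 bp from the nearer of them, and LPS-treated wt one scored 94.3 at 799 bp.

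Wide regions could lie close to calls of the other lists. The region on chromosome 7 at 29173011 to 29177107, the widest of all at 4097 bp, scored 1093 and had a peak of untreated HDAC3 KO, scored 784, at 1147 bp. The nearest peaks of LPS-treated wt, at 841 bp, and of untreated wt, at 225 bp, scored 85.2 and 73.55. The region on chromosome 12 at 8831749 to 8833919 scored 753 and lay 11 bp from a region called in all 4 lists, so its separate call rests on a gap of that size. In the 50 kb around it peaks covered 17.5 kb in LPS-treated HDAC3 KO, 3.15 kb in untreated HDAC3 KO, 4.33 kb in LPS-treated wt and 0.426 kb in untreated wt.

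The other regions among the 20 highest-scored had scores of 682 to 1198 and widths of 1046 to 3181 bp. Among the 20, the nearest region of any kind was another KO-LPS-only region for 13, and a region called in all 4 lists lay within 5 kb of 5. An LPS-treated wt peak lay within 5 kb of 13, an untreated HDAC3 KO peak of 10 and an untreated wt peak of 6. Over all KO-LPS-only regions these shares were 52.9, 46.0 and 46.4% in the same order. Among those scored 200 or more they were 51.4, 44.5 and 43.4%. The covered lengths given for LPS-treated HDAC3 KO around single regions include the region itself.

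Flanking of regions called in all 4 lists was then examined. These 17827 regions (28.5% of all merged regions) are called constitutive here, for their calls. A KO-LPS-only region was said to flank one when the gap between them was at most 5 kb. This held for 3039 of 9054 (33.6%, exact 95% interval 32.6 to 34.5%). The remaining KO-LPS-only regions lay farther off, and the median gap over all of them was 13.4 kb. For scale, constitutive regions and the ground within 5 kb of them made up 6.84% of the 2564 Mb spanned by peaks. Of these 175 Mb, 37.4 Mb lay inside constitutive regions, where no KO-LPS-only region can lie, so the ground open to flanking was smaller.

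The shares of strong and weak regions that flanked one were close. Of those scored 200 or more, 183 of 580 did (31.6%, 27.8 to 35.5%), against 2856 of 8474 weaker ones (33.7%, 32.7 to 34.7%). The difference was -2.15 percentage points, with a 95% interval of -5.94 to 1.87 that covers counting error only. Within 500 bp the shares were 12.2% of the strong and 12.4% of the weak regions. Of the 56 regions scored 500 or more, 15 flanked one within 5 kb (26.8%, 15.8 to 40.3%).

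Regions called in 1 other list alone flanked constitutive regions as well. The share within 5 kb was 38.2% (36.9 to 39.5%) for untreated HDAC3 KO, 24.6% (23.4 to 25.9%) for LPS-treated wt and 26.6% (25.6 to 27.7%) for untreated wt. The KO-LPS-only share was thus 8.94 percentage points above that of LPS-treated wt alone (95% interval 7.36 to 10.5) and below that of untreated HDAC3 KO alone. Beside constitutive regions whose peaks all scored 200 or more, 4.67% of KO-LPS-only regions flanked one and the excess over LPS-treated wt alone was 1.27 points. Among regions scored 200 or more the share was 31.6%, against 19 of 60 (31.7%, 20.3 to 45.0%) for untreated HDAC3 KO alone, 21 of 210 (10.0%, 6.30 to 14.9%) for LPS-treated wt alone and 19 of 99 (19.2%, 12.0 to 28.3%) for untreated wt alone. A score of 200 need not mark the same enrichment in different lists. Among the weaker regions, both HDAC3 KO classes had higher shares than both wt classes at each distance in the plot of flanking by distance. No test was run, since neighbouring regions of 1 library are not replicates.

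**Figure D2:**
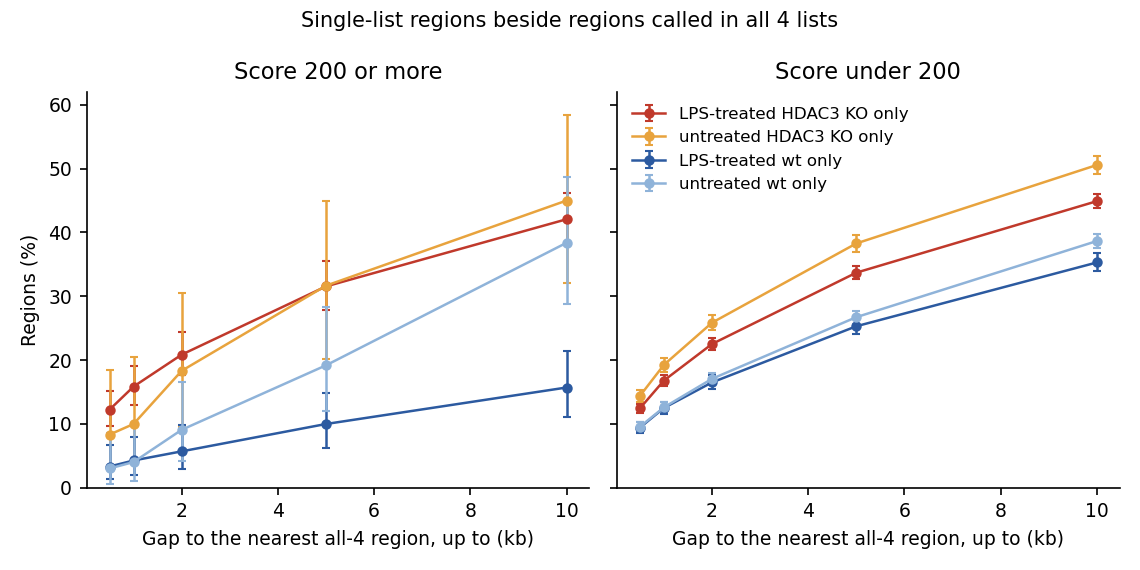
Share of single-list regions, in percent, with a region called in all 4 lists within the distance on the horizontal axis, for scores of 200 or more (left) and under 200 (right). Bars are exact 95% intervals covering counting error only. At 5 kb the strong KO-LPS-only regions stand at 31.6%, against 31.7% for untreated HDAC3 KO only, 10.0% for LPS-treated wt only and 19.2% for untreated wt only.

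Of the 17827 constitutive regions, 2980 (16.7%) had a KO-LPS-only region within 5 kb. Most of these, 2161, had 1, 589 had 2 and 230 had 3 or more, and 331 had them on both sides. In the flanked constitutive regions the median length inside peaks was 1907 bp in LPS-treated HDAC3 KO, 1298.5 bp in untreated HDAC3 KO, 1382.5 bp in LPS-treated wt and 1177.5 bp in untreated wt. In those not flanked it was 1423 bp in LPS-treated HDAC3 KO, 1237 bp in untreated HDAC3 KO, 1197 bp in LPS-treated wt and 1192 bp in untreated wt. LPS-treated HDAC3 KO thus had the widest call in both kinds, and the lists stood farther apart in the flanked ones.

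The length inside peaks in LPS-treated HDAC3 KO was 1.30 times that in LPS-treated wt over the flanked regions and 1.18 times over the others. Against untreated HDAC3 KO the ratios were 1.45 and 1.17. Over constitutive regions flanked by LPS-treated wt-only regions this ratio was nearly as high, at 1.43. It was 1.05 over those flanked by untreated HDAC3 KO-only regions and 1.13 over those flanked by untreated wt-only regions. In wt, the ratio of LPS-treated to untreated was 1.26 over the flanked and 1.05 over the others, and it was 1.38 over those flanked by LPS-treated wt-only regions. LPS-treated HDAC3 KO had the longest cover of the 4 lists in 2032 of 2980 flanked regions (68.2%, 66.5 to 69.9%) and in 6635 of 14847 others (44.7%, 43.9 to 45.5%). The ratio of LPS-treated HDAC3 KO to LPS-treated wt was 1.29 over constitutive regions flanked by untreated HDAC3 KO-only regions and 1.06 over those flanked by LPS-treated wt-only regions. These ratios use the same libraries as the choice of regions and are descriptions.

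The wider calls were not limited to the flanked side. In the 2649 constitutive regions with KO-LPS-only regions on 1 side, the LPS-treated HDAC3 KO call reached beyond that of LPS-treated wt by a median of 106 bp on the flanked side and 92 bp on the opposite side. In regions not flanked, the median was 52 bp per side. Against untreated HDAC3 KO the medians were 143 bp on the flanked side, 108 bp on the opposite side and 41 bp where not flanked.

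The 5 constitutive regions with the most KO-LPS-only regions around them had 6 to 8 each. The first, on chromosome 4 at 86324503 to 86326398, had 8. Its peaks scored 561 over 1.79 kb in LPS-treated HDAC3 KO, 102 over 1.24 kb in untreated HDAC3 KO, 52.3 over 0.36 kb in LPS-treated wt and 51.2 over 0.33 kb in untreated wt. Both wt calls were close to the lowest score listed, so this region was only just called in all 4 lists. On chromosome 9, the region at 63524746 to 63527798 had 6, and peaks covered 3.05 kb of it in LPS-treated HDAC3 KO, 2.08 kb in untreated HDAC3 KO, 0.55 kb in LPS-treated wt and 0.55 kb in untreated wt. The chromosome 8 region at 119602095 to 119603916, with 7, had 1.68 kb in LPS-treated HDAC3 KO, 1.70 kb in untreated HDAC3 KO, 0.56 kb in LPS-treated wt and 0.44 kb in untreated wt. In these 3 the cover was greater in both HDAC3 KO lists than in both wt lists.

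In the remaining pair the LPS-treated wt score was also high. The region on chromosome 10 at 93520167 to 93524924, with 7, was scored 1790 over 4.76 kb in LPS-treated HDAC3 KO, 420 over 1.90 kb in untreated HDAC3 KO, 1363 over 2.48 kb in LPS-treated wt and 268 over 1.35 kb in untreated wt. On chromosome 18 the region at 52723351 to 52725348, with 6, was scored 729 in LPS-treated HDAC3 KO, 129 in untreated HDAC3 KO, 805 in LPS-treated wt and 135 in untreated wt. Over the 5 regions, the LPS-treated score was above the untreated one in HDAC3 KO for each, and in wt for each but the chromosome 9 region, with 93.7 in LPS-treated and 98.1 in untreated wt.

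KO-LPS-only regions often had each other as neighbours. The nearest merged region of any kind was another KO-LPS-only region for 3342 of them (36.9%, 35.9 to 37.9%), a constitutive region for 21.3%, and a region called in both LPS-treated lists and neither untreated list for 10.8%. Among those scored 200 or more these shares were 50.5%, 15.9% and 11.9%. A constitutive region was nearest for 28.7% of all regions of untreated HDAC3 KO only. This share was 20.8% for LPS-treated wt only and 25.6% for untreated wt only. A region called in both LPS-treated lists and neither untreated list was nearest for 14.3% of LPS-treated wt-only regions (16.2% at 200 or more). For untreated HDAC3 KO only and untreated wt only it was 1.76% and 2.44%. A nearest region of the own class was found for 41.7% of the regions at 200 or more of untreated HDAC3 KO only, 51.0% of those of LPS-treated wt only and 42.4% of those of untreated wt only. Of the strong regions, 235 of 580 (40.5%) had another KO-LPS-only region as nearest neighbour within 500 bp, against 21.3% of the weaker ones. For strong regions called in LPS-treated wt alone, the share with a neighbour of their own class was 83 of 210 (39.5%).

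Linking KO-LPS-only regions with gaps of up to 5 kb gave 6370 runs. A total of 4671 regions stood alone, 573 runs had 3 or more regions, and these held 2131 regions (23.5%), with up to 13 in a run. In LPS-treated wt alone 13.2% of regions were in such runs, in untreated HDAC3 KO alone 9.26% and in untreated wt alone 7.35%. The classes differed in their number of regions, which was not matched here.

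Positions around the regions were then examined for any peak of each list, KO-LPS-only or not. At 500 bp from the edge of a strong region, 42.4% of positions lay inside another peak of LPS-treated HDAC3 KO, 5.78% inside one of untreated HDAC3 KO, 10.6% inside one of LPS-treated wt and 3.88% inside one of untreated wt. Around weak regions the shares were 25.7% for LPS-treated HDAC3 KO, 6.32% for untreated HDAC3 KO, 8.95% for LPS-treated wt and 5.33% for untreated wt. At 25 kb from strong regions they were 10.7% for LPS-treated HDAC3 KO, 4.66% for untreated HDAC3 KO, 5.34% for LPS-treated wt and 4.05% for untreated wt. The regions were chosen for an LPS-treated HDAC3 KO peak that no peak of another list touched. The order of the lists close to their edges thus follows in part from the choice. Such positions were not examined around the other single-list classes.

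**Figure D3:**
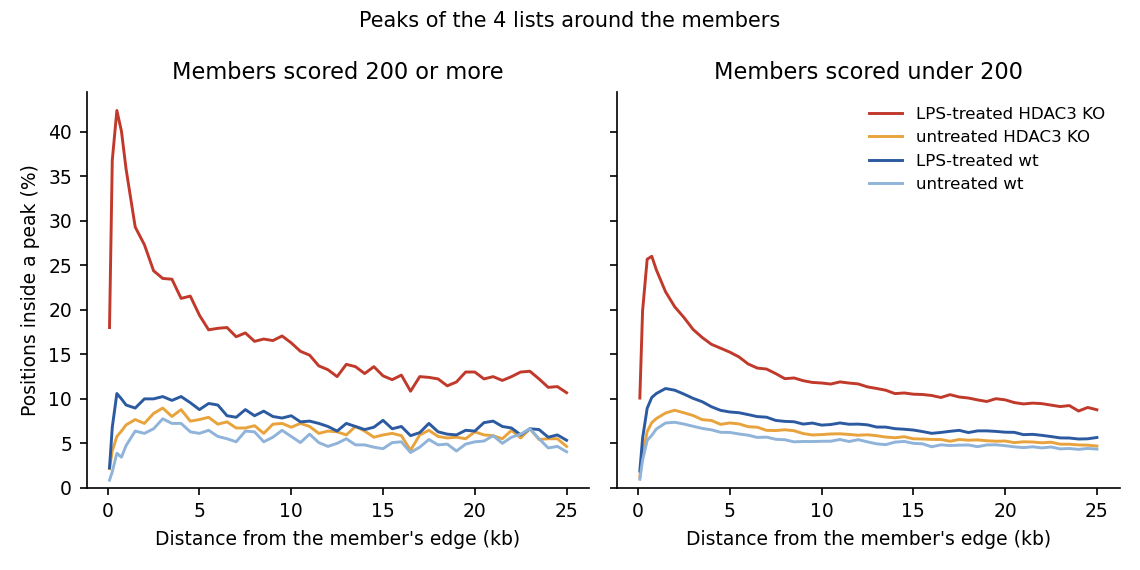
Share of positions, in percent, that lay inside a peak of each list, by distance from the edge of a KO-LPS-only region in kb, for regions scored 200 or more (left) and under 200 (right), both sides pooled. LPS-treated HDAC3 KO stands at 42.4% at 500 bp from strong regions, where LPS-treated wt stands at 10.6%. The order close to the edges follows in part from how the regions were chosen.

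The ground around KO-LPS-only regions also differed between the wt lists, which were not called in the regions themselves. Within 25 kb of their centres, and leaving the regions out, peaks covered 20.8 Mb in LPS-treated HDAC3 KO, 13.7 Mb in untreated HDAC3 KO, 15.6 Mb in LPS-treated wt and 12.3 Mb in untreated wt. Elsewhere they covered 24.0 Mb in LPS-treated HDAC3 KO, 22.8 Mb in untreated HDAC3 KO, 21.8 Mb in LPS-treated wt and 23.0 Mb in untreated wt. LPS-treated wt thus had 1.26 times the length of untreated wt near the regions and 0.947 times elsewhere. Near the strong regions this ratio was 1.38, against 1.05 elsewhere. Around regions of LPS-treated wt only it was higher than around KO-LPS-only regions, at 1.41, while it was 0.863 around those of untreated HDAC3 KO only and 0.957 around those of untreated wt only. Each class had its own regions left out, which shortens a wt length for the wt classes alone. The values of the wt classes are thus not like for like with the others. Over the whole lists the ratio was 1.06.

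In the same ground LPS-treated HDAC3 KO had 1.33 times the length of LPS-treated wt, against 1.10 elsewhere, and near the strong regions 1.56, against 1.18 elsewhere. Around the other single-list classes, each with its own regions left out, this ratio was 1.501 for untreated HDAC3 KO only, 1.23 for LPS-treated wt only and 1.32 for untreated wt only. Over the whole lists, with no regions left out, it was 1.35. These comparison values keep the KO-LPS-only regions in the LPS-treated HDAC3 KO length, while the 1.33 leaves them out. They are thus not like for like, and do not show that the value near KO-LPS-only regions sets them apart. Between untreated HDAC3 KO and untreated wt the ratio was 1.11 near the regions and 0.988 elsewhere. It was 1.10 around regions of untreated HDAC3 KO only, 0.952 around LPS-treated wt only and 1.08 around untreated wt only. Over the whole lists it was 1.03. For the untreated classes, leaving out their own regions shortens their own list, so these values are not like for like. Counted region by region, 4990 of 9054 (55.1%, 54.1 to 56.1%) had more length inside LPS-treated than untreated wt peaks in the 50 kb around them, and 13.9% had equal length. Over all merged regions 47.9% had more in LPS-treated wt and 3.34% had equal length. The 50 kb include the region itself, which by selection holds no wt peak for KO-LPS-only regions but often does for others. The contrast with all merged regions is thus partly built in. For regions of untreated HDAC3 KO only, which hold no wt peak either, the shares were 28.2% and 11.6%.

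The regions were spread over 5088 windows of 50 kb, of which 3036 held 1 and 240 held 5 or more. The 10 windows with the most were picked for their LPS-treated HDAC3 KO peaks, so its cover in them is a description and is given also outside the KO-LPS-only regions. The first, on chromosome 10 at 18650001 to 18700000, held 14 starts of KO-LPS-only regions, 5 of them scored 200 or more. Peaks covered 29.2 kb of it in LPS-treated HDAC3 KO, 5.34 kb in untreated HDAC3 KO, 3.65 kb in LPS-treated wt and 1.92 kb in untreated wt. Outside the KO-LPS-only regions, LPS-treated HDAC3 KO covered 14.0 kb. The next window on that chromosome, 18700001 to 18750000, held 10 and had 25.3 kb in LPS-treated HDAC3 KO (17.7 kb outside them), 6.62 kb in untreated HDAC3 KO, 14.0 kb in LPS-treated wt and 3.58 kb in untreated wt, so the LPS-treated wt cover was larger there.

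In the 120 kb centred on the first window, LPS-treated HDAC3 KO had 34 peaks, 19 of them KO-LPS-only, over 50.2 kb. Untreated HDAC3 KO had 17 over 12.1 kb, LPS-treated wt 9 over 13.2 kb and untreated wt 7 over 4.72 kb. The highest scores of KO-LPS-only regions there were 1514, 752 and 660. Within the 50-kb window the map shows a chain of adjoining calls in LPS-treated HDAC3 KO, where the LPS-treated wt peaks were short and separate.

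**Figure D4:**
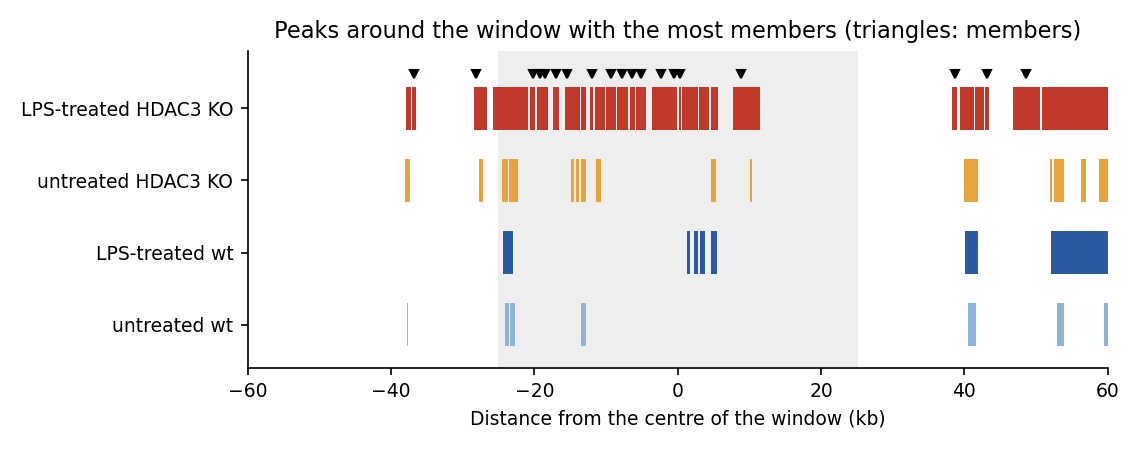
Peaks of the 4 lists, 1 per row, in the 120 kb around the window with the most KO-LPS-only regions, by distance from its centre in kb. Grey marks the 50-kb window and triangles mark the 19 KO-LPS-only regions, most of which sit in a chain of LPS-treated HDAC3 KO calls.

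The second window, on chromosome 2 at 116750001 to 116800000, held 14 as well, with 19.4 kb covered in LPS-treated HDAC3 KO (8.82 kb outside them), 5.36 kb in untreated HDAC3 KO, 6.51 kb in LPS-treated wt and 5.07 kb in untreated wt. Only 2 of its regions scored 200 or more. The third, on chromosome 12 at 120300001 to 120350000, held 13, with 10.1 kb covered in LPS-treated HDAC3 KO, 2.87 kb in LPS-treated wt and none in either untreated list. Outside the KO-LPS-only regions, LPS-treated HDAC3 KO covered 1.64 kb of it, less than LPS-treated wt. The window on chromosome 7 at 3450001 to 3500000 held 10, with 10.2 kb in LPS-treated HDAC3 KO, 1.05 kb in LPS-treated wt and also none in either untreated list. There LPS-treated HDAC3 KO covered 2.3 kb outside the KO-LPS-only regions, more than LPS-treated wt.

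The window on chromosome 10 at 82400001 to 82450000 held 10 and was the one with none of its length inside LPS-treated wt peaks, with 9.50 kb in LPS-treated HDAC3 KO (2.80 kb outside the KO-LPS-only regions), 0.252 kb in untreated HDAC3 KO and 1.37 kb in untreated wt. The window on chromosome 2 at 30750001 to 30800000 held 10, none scored 200 or more, and was the most covered, with 32.97 kb in LPS-treated HDAC3 KO (26.7 kb outside them), 5.64 kb in untreated HDAC3 KO, 21.3 kb in LPS-treated wt and 4.97 kb in untreated wt. There the KO-LPS-only regions were weak calls in ground covered by both LPS-treated lists. In 9 of the 10 windows LPS-treated wt covered more than untreated wt, the exception being the chromosome 10 window at 82400001. Untreated HDAC3 KO covered more than untreated wt in 7 of the 10. These counts were not set against other windows, so they do not show that these windows stand apart.

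**Figure D5:**
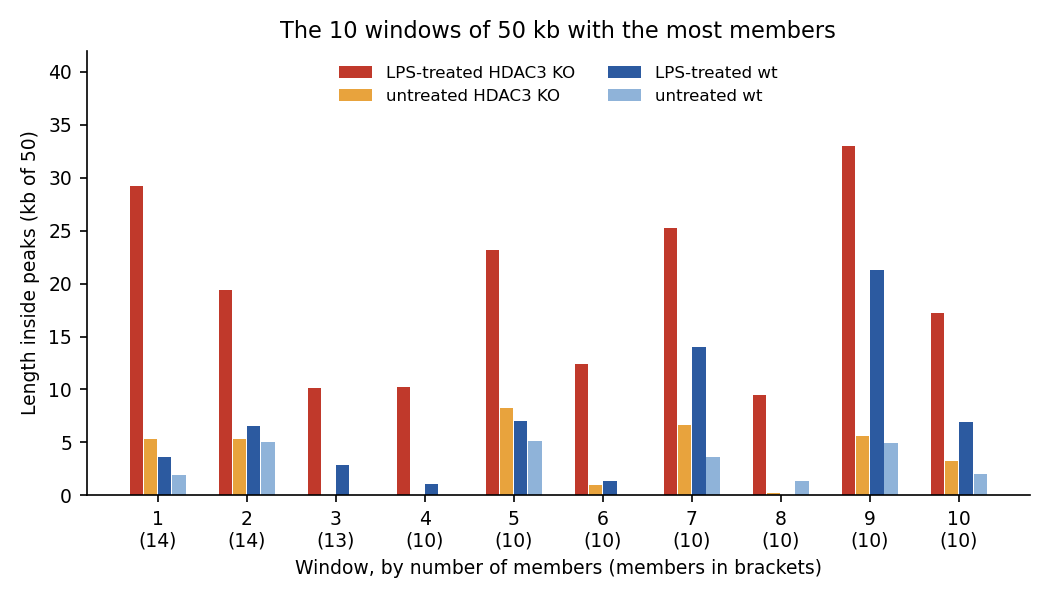
Length inside peaks, in kb of 50, for the 10 windows with the most KO-LPS-only regions, with 4 bars per window for the 4 lists and the number of KO-LPS-only regions in brackets. The LPS-treated HDAC3 KO bars run from 9.50 to 32.97 kb and include the KO-LPS-only regions that chose the windows. Without these, the bar of the third window would be 1.64 kb, against 2.87 kb in LPS-treated wt.

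A total of 3101 KO-LPS-only regions (34.3%, 33.3 to 35.2%) had no peak of any other list within 5 kb. This share was 29.0% (27.7 to 30.2%) for untreated HDAC3 KO only, 38.3% (36.9 to 39.7%) for LPS-treated wt only and 44.0% (42.9 to 45.2%) for untreated wt only. Among KO-LPS-only regions it was 34.8% (30.9 to 38.9%) for those scored 200 or more and 34.2% (33.2 to 35.2%) for the weaker ones. Regions at 200 or more of LPS-treated wt only had 53.8% (46.8 to 60.7%). The 18 scored at 500 or more were led by the chromosome 18 pair. The next were chromosome 15, 10688769 to 10689827 (score 860), and chromosome 13, 44564500 to 44566176 (720.1). The chromosome 13 region stood 9.05 kb from its nearest region of any kind. In the 50 kb around it peaks covered 4.17 kb in LPS-treated HDAC3 KO, 0.907 kb in untreated HDAC3 KO, 0.226 kb in LPS-treated wt and 0.9 kb in untreated wt.

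Others had company in their own list. The region on chromosome 16 at 84795283 to 84796145 scored 650.1, had another KO-LPS-only region 603 bp away, and lay 38.3 kb from the nearest untreated HDAC3 KO and LPS-treated wt peaks and 18.0 kb from the nearest untreated wt peak. Also on chromosome 16, the region at 20413215 to 20415427 scored 649 and lay 7.00 kb from an LPS-treated wt peak scored 601. A chromosome 10 region at 96067148 to 96069617 scored 602 and lay 9.02 to 9.36 kb from peaks of the other lists. The regions on chromosome 6 at 17255937 to 17258441 (593), chromosome 15 at 39848971 to 39851498 (591) and chromosome 1 at 93332913 to 93335573 (576) lay 16.5 to 26.3 kb from any peak of another list. Around the second of these, LPS-treated HDAC3 KO covered 6.73 kb of 50 kb, and neither untreated HDAC3 KO nor LPS-treated wt covered any.

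KO-LPS-only regions were found on every autosome and on X. They made up 12.9% (11.7 to 14.2%) of merged regions on chromosome 17, the lowest autosomal share, and 16.6% (15.4 to 17.9%) on chromosome 10, the highest. On X there were 186 of 1433 (13.0%, 11.3 to 14.8%). Only 1 of the 186 on X scored 200 or more (0.538%, 0.0136 to 2.96%), against 579 of 8864 on autosomes (6.53%, 6.03 to 7.07%). Over all peaks of the LPS-treated HDAC3 KO list the shares at 200 or more were 27.8% (24.95 to 30.7%) on X and 40.6% (40.2 to 41.1%) on autosomes, so the share was lower on X in the whole list too. The other 4 regions lay on unplaced sequence.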

How the data were processed

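Per the submitters' processing notes, Bowtie and mm9 were used. Per the file headers, the authors called peaks with MACS for each ChIP library against input, while versions, settings and the input sample are not stated in what was used here. Each deposited list gives, per peak, start, end and a score, whose scale is not stated. Its lowest value is about 50. The antibody was against acetylated histone H4.

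Peaks were merged with bedtools 2.31.1 (gap of 0 bp). Distances, cover and intervals (exact Clopper-Pearson for shares, Newcombe for differences of shares, 95%) used Python 3.11.15, numpy 2.4.6, pandas 2.3.3 and scipy 1.17.1. Figures used matplotlib 3.10.9. Intervals cover counting error only. Neighbouring regions of 1 library are not independent. Merging and distances were tested on simulated lists: 9 of 9 known answers were recovered over 1000 regions. Regions, score threshold and named regions (20 highest-scored, 10 highest-scored without another list's peak within 5 kb, 5 on each side of the score of 200, 10 windows, 5 constitutive regions) were chosen with earlier results of these data known. With no replicates, no library could be left out. Gene annotation and sequence steps were not run, because the only gene table at hand has GRCm38 coordinates, and none were converted. Positions count from 1.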

Additional observations from a re-analysis of the deposited data

How the results depend on the processing

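No paired analysis was possible because each group had 1 library. Of 53 alternative values, 28 stayed within 1.5 times (counts, ratios) or within the counting interval (shares), 25 moved and none turned direction where the interval excluded 0. Counting LPS-treated HDAC3 KO peaks that no single peak of another list covered by at least 50% gave 13421, against 9054 merged regions. The KO-LPS-only count was 4840 with a merge gap of 500 bp, 3417 with peaks at or above their list's median score, 2558 with the 20000 highest-scored peaks and 1167 with lists reduced to equal covered length (added once the data had been seen). The share scored 200 or more was 55.1, 79.3 and 57.7% in the last 3, which drop weak peaks by construction, and 11.9 and 2.43% with thresholds of 150 and 300. The flanking share was 24.5, 22.8, 21.4 and 30.4% under the same 4 settings, 22.4 and 44.7% at distances of 2 and 10 kb, and 4.67% beside constitutive regions whose peaks all scored 200 or more. Its excess over LPS-treated wt alone was 6.99, 6.61, 5.67 and 6.88 points under the 4 settings, 6.39 at 2 kb and 1.27 beside those strong constitutive regions. Regions with no other peak within 5 kb numbered 1730, 1309 and 428 with median-score, top-20000 and equal-length lists. The strong-minus-weak difference in flanking stayed between -4.59 and 0.37 points, and the cover ratio in flanked constitutive regions between 1.29 and 1.44. Read depth limits every call and is unknown.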
